A study of Mus musculus with 2 samples.

Results

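The miR-29 family was measured in the lungs of newborn mice through its 4 precursor genes, Mir29a, Mir29b-1, Mir29b-2 and Mir29c. They were chosen by symbol, and all 4 were found among the 1973 miRNA gene rows of the count tables. Small RNA below 30 bases was sequenced from whole lungs of the mouse strain B6NCrl on postnatal day 0, with no treatment and no mutation in the labels, in 1 group with 2 replicates. Replicate 1 was made from 2 lungs of pup 1 and replicate 2 from 2 lungs of pup 3; the labels place the pups in pregnancy 1, give them a common donor record, and state that sex was not collected. The design therefore gives levels in the newborn lung, ratios between the family's genes, and a comparison of the libraries. Reads on miRNA genes numbered 4532902 in replicate 1, against 5426081 in replicate 2.

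A microRNA is cut from a hairpin precursor, and the arm that is kept guides a silencing complex to messenger RNAs that pair with its seed, bases 2 to 8. The kept arm of miR-29 is the 3p arm. The family is known as a repressor of the extracellular matrix: its targets include fibrillar and basement membrane collagens, elastin and fibrillin, and TGF-beta signalling lowers it in fibroblasts. It also targets the DNA methyltransferases Dnmt3a and Dnmt3b and the TET enzymes. In the lung it is best known for restraining fibrosis. At birth the mouse lung is in its saccular stage, and most alveoli form in the days and weeks that follow, when elastin is laid down.

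The mature sequences are shown because they decide which reads could be given to which gene. They are from RefSeq on GRCm38.p6, where all 4 genes were matched by symbol, and capitals mark the seed.
miR-29a-3p: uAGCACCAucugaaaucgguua
miR-29b-3p: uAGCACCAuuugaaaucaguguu
miR-29c-3p: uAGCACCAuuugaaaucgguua
These 3 sequences share 1 seed, and in the RefSeq table of mouse miRNAs the genes that hold this seed are the 4 of the family. Counted from 1 at the 5′ end, miR-29c-3p differs from miR-29a-3p by C10U alone, and the other 21 of 22 bases are identical. Between miR-29c-3p and miR-29b-3p the substitutions over 22 aligned bases are G18A, U21G and A22U. The first 17 bases of miR-29c-3p and miR-29b-3p are therefore the same.

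Mature miR-29b-3p is encoded by 2 genes, Mir29b-1 and Mir29b-2, and a read of this arm cannot be assigned to either by its sequence. The tables give reads mapped to several places a total of their own, 34.6% of all reads in replicate 1 and 36.7% in replicate 2, and the gene rows are read here as counts of uniquely placed reads. No deposited value shows where the multiply mapped reads would lie. The precursors of the miR-29b genes show what remains to tell them apart. Capitals mark the mature arms, the 5p arm first.
Mir29b-1: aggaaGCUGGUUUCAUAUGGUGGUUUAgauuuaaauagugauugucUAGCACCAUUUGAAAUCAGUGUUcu
Mir29b-2: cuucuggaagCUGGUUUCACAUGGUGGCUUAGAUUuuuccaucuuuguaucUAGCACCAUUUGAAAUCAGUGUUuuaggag
Of the stretches of 22 bases in each precursor, 5 of 50 in Mir29b-1 and 4 of 60 in Mir29b-2 also occur in another miRNA gene of GENCODE M21, and those stretches cover all or part of the 3p arm. In Mir29c 1 of 67 does, and in Mir29a 0 of 67 do. The 5p arms of the miR-29b genes differ by U11C and U19C over 21 aligned bases, counted from the 5′ end of miR-29b-1-5p.

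The 5p arms are usually discarded when the hairpin is processed. They are shown because in the miR-29b genes they are the arms that differ in sequence. Capitals mark bases 2 to 8.
miR-29a-5p: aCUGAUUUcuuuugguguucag
miR-29c-5p: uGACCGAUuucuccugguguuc
miR-29b-1-5p: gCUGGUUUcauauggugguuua
miR-29b-2-5p: cUGGUUUCacaugguggcuuagauu
None of these 5p arms has the seed of the 3p arms. The tables count both arms of a precursor together, so 5p and 3p reads were not separated.

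The genes lie in 2 pairs on GRCm38, the assembly also called mm10. Mir29a (ENSMUSG00000065610.1) is on the minus strand at chr6:31062660-31062747, where it overlaps no other gene of GENCODE M21. Mir29b-1 (ENSMUSG00000065604.1 in the tables) is on the minus strand at chr6:31063023-31063093, 275 bases from Mir29a, and overlaps the long noncoding RNA gene Gm27019 by 2 bases. Mir29b-2 (ENSMUSG00000065412.2 in the tables) is on the plus strand at chr1:195037040-195037120, and Mir29c (ENSMUSG00000065548.1) follows it at chr1:195037547-195037634, with 426 bases between them. Both lie wholly within an exon of 1 of the 4 annotated transcripts of A330023F24Rik, a long noncoding RNA gene. They also lie opposite an exon of Cd46, a complement regulator gene on the other strand. No read was counted on the opposite strand of any of the 4 genes in either library. The identifiers of Mir29b-1 and Mir29b-2 carry an older version number in the tables than in M21, and the coordinates given are those of M21.

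Together the 4 genes took 3701 reads in replicate 1 and 4609 in replicate 2. Their summed level was 816 and 849 counts per 1000000 reads on miRNA genes (CPM), or 833 ± 23.3 CPM (SD, n = 2). The exact Clopper-Pearson 95% interval was 790 to 843 CPM in replicate 1 and 825 to 874 CPM in replicate 2. This is 0.0833% of the reads on miRNA genes. Intervals and floors describe counting error of reads alone. PCR copies are not separate molecules, so the intervals may be too narrow. In whole lung tissue, fewer cells that hold a miRNA and less of it per cell cannot be told apart.

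Mir29a, the source of miR-29a, had most of the family's counted reads. It had 3177 reads in replicate 1 and 4066 in replicate 2, which is 701 and 749 CPM, or 725 ± 34.3 CPM (SD, n = 2). The lungs of both pups thus gave close levels, and Mir29a made up 85.8% and 88.2% of the family's counted reads. It was the 94th most abundant of all rows in replicate 1 and the 91st in replicate 2.

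Mir29c, the source of miR-29c, came next. It had 472 and 511 reads in replicates 1 and 2, which is 104 and 94.2 CPM, or 99.2 ± 7.04 CPM (SD, n = 2). Its share of the family's counted reads was 12.8% in replicate 1 and 11.1% in replicate 2. In both libraries it lay below Mir29a and above the miR-29b genes, with no overlap of the counting intervals.

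The rows of the miR-29b genes were low in both pups. Mir29b-1 had 48 reads in replicate 1 and 29 in replicate 2, which is 10.6 and 5.34 CPM, or 7.97 ± 3.71 CPM (SD, n = 2). Mir29b-2 had 4 and 3 reads, which is 0.882 and 0.553 CPM, or 0.718 ± 0.233 CPM. The level of Mir29b-2 stood at about the floor of 3 reads, which is 0.662 CPM in replicate 1 and 0.553 CPM in replicate 2. Since reads of the shared miR-29b-3p arm have 2 possible sources, these rows do not measure the amount of mature miR-29b, and its level was not measured here. Which arm the few counted reads came from was not tested. Counts were not divided by precursor length, since the sequenced molecules are arms of 22 to 25 bases.

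**Figure D1:**
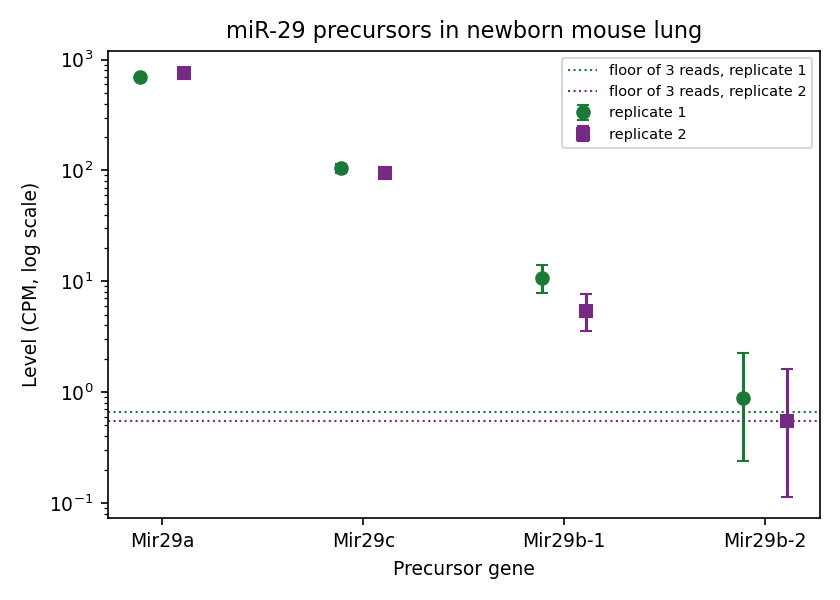
Levels of the 4 miR-29 precursors in CPM on a log scale, 1 point per library, with exact Clopper-Pearson 95% intervals as bars and the floor of 3 reads of each library as dotted lines. Mir29a stands at 701 and 749 CPM in replicates 1 and 2, Mir29c at 104 and 94.2 CPM, Mir29b-1 at 10.6 and 5.34 CPM, and Mir29b-2 at the floors.

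The order Mir29a, Mir29c, Mir29b-1, Mir29b-2 was the same in both libraries. Mir29a exceeded Mir29c by 6.73-fold in replicate 1 (exact 95% interval 6.11 to 7.43) and by 7.96-fold in replicate 2 (7.26 to 8.74). On the log2 scale this ratio was 2.87 ± 0.17 (SD, n = 2). The spread between the pups was thus small beside the ratio itself. Mir29b-1 exceeded Mir29b-2 by 12-fold in replicate 1 (4.39 to 45.8) and by 9.67-fold in replicate 2 (3.0 to 49.6). These wide intervals follow from the few reads of Mir29b-2. In replicate 2 it did not exceed the floor of 3 reads, so the 9.67-fold is a bound. By locus, the chromosome 6 pair held 733 ± 30.6 CPM and the chromosome 1 pair held 99.9 ± 7.27 CPM. These are 88.0% and 12% of the family's counted reads, and reads of the shared miR-29b-3p arm may be missing from either locus. No p is given for these ratios, because with 2 libraries an exact two-sided test by sign flips cannot go below 0.5.

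Within each pair, genes that lie close together on the same strand differed widely in counted reads. On chromosome 6, Mir29a exceeded Mir29b-1 by 66.2-fold in replicate 1 (exact 95% interval 49.8 to 90.0) and by 140-fold in replicate 2 (97.5 to 210). The log2 ratio was 6.59 ± 0.77 (SD, n = 2), and the intervals of the libraries did not overlap. On chromosome 1, Mir29c exceeded Mir29b-2 by 118-fold in replicate 1 (45.8 to 435) and by 170-fold in replicate 2 (58.0 to 829). The log2 ratio was 7.15 ± 0.37. In replicate 2 Mir29b-2 did not exceed the floor of 3 reads, so the 170-fold is a bound. The log2 mean and SD of this pair rest on that bound. The lower gene of each pair is the one whose 3p arm is shared with the other locus. Whether reads were left uncounted for that reason, and how far this would raise both ratios, was not tested.

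Wide differences between neighbouring precursors were common in these libraries. There were 89 pairs of adjacent precursors on the same strand with at most 1000 bases between them and at least 10 reads of the higher one in each library. With lower members set to no less than 3 reads, the median log2 ratio of the higher to the lower member was 3.97, and 49 of the 89 pairs differed by at least 10-fold. The pair on chromosome 1 ranked 20th and the pair on chromosome 6 ranked 25th. In 17 pairs the lower member shares a mature arm with another gene, as in both miR-29 pairs, and the median log2 ratio of those was 3.97. In 52 pairs it shares none, and the median was 2.63. Why these medians differ was not tested. A gene can belong to more than 1 pair, so the pairs are not independent, and the remaining pairs had a lower member with no matched mature sequence.

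**Figure D2:**
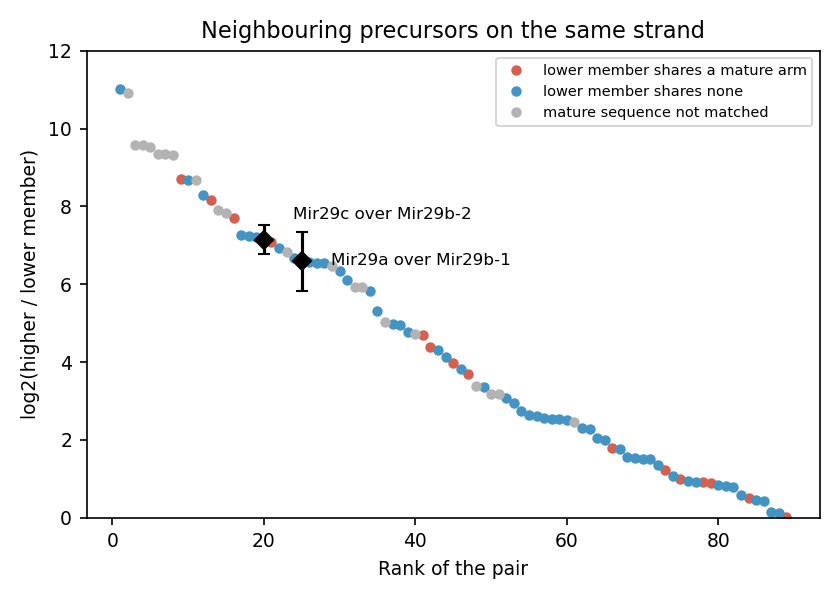
Log2 ratio of the higher to the lower member in 89 pairs of neighbouring precursors on the same strand, mean of 2 libraries, ordered by size and coloured by whether the lower member shares a mature arm with another gene. The miR-29 pairs are the diamonds, with the SD of 2 libraries as bars, at 7.15 for Mir29c over Mir29b-2 and 6.59 for Mir29a over Mir29b-1.

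Among all rows, the family's genes were spread over high, middle and low levels. Of the 1973 rows, 308 had at least 10 reads in each library, with a median level of 139 CPM, and 3 of the 4 miR-29 genes were among them. Mir29a stood above this median, with 93 of the 308 rows above it. Mir29c, at 99.2 CPM, stood below the median. Mir29b-1 was near the lower end, with 47 of the 308 rows below it. Rows with a mature arm shared with another gene, like the miR-29b genes, numbered 87. Of these 39 had at least 10 reads in each library, with a median of 36.1 CPM. Among 829 rows with no shared arm, 244 had at least 10 reads in each library, with a median of 208 CPM. Whether reads were left uncounted in the first of these medians, and how many, was not tested.

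**Figure D3:**
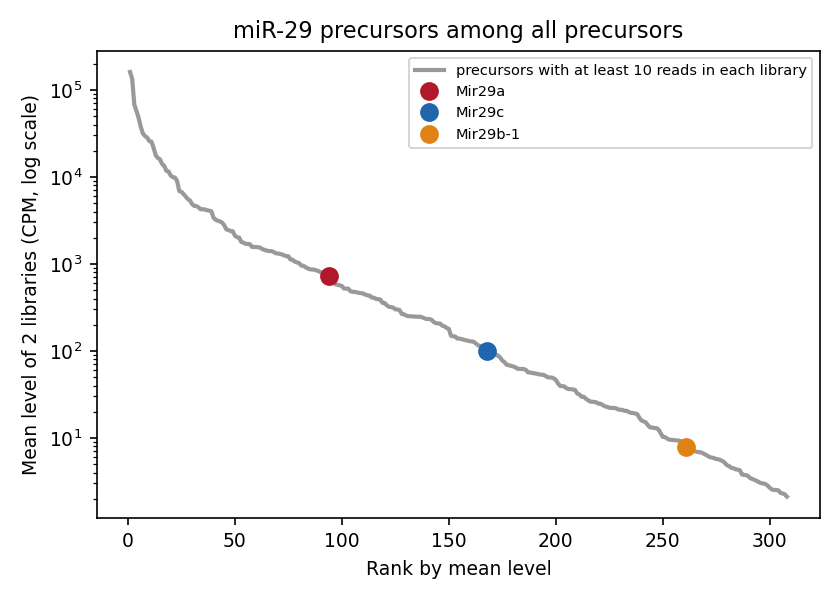
Mean level in CPM on a log scale of the 308 precursors with at least 10 reads in each library, ordered by level, with Mir29a at 725 CPM, Mir29c at 99.2 CPM and Mir29b-1 at 7.97 CPM marked. The 3 genes lie in the upper, the middle and the lower part of the curve.

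For the 3 members detected in both libraries at 10 reads or more, the rows nearest in level were sought. The measure was the Euclidean distance of log2(CPM + 1) over the 2 libraries, against 307 other rows. Nearest to Mir29a were Mir96 at a distance of 0.132, Mir92b at 0.191 and Mir708 at 0.229. Nearest to Mir29c were Mir329 at 0.101, Mir192 at 0.140 and Mir485 at 0.165. Nearest to Mir29b-1 were Mir8114 at 0.114, Mir181b-1 at 0.219 and Mir702 at 0.272. With 2 libraries of 1 tissue this measures a like level, not a shared pattern over conditions.

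The summed level of the family was below the totals of 3 lists of other miRNAs, each of which rested on a few abundant genes. Its sum of 833 ± 23.3 CPM (SD, n = 2) stood against 28545 ± 1186 CPM for 7 miRNAs known to favour fibrosis, whose total was 34.3-fold higher. All 7 had at least 10 reads in each library. Mir21a, which acts on Smad7 among other targets, led them with 25374 ± 1048 CPM, followed by Mir145a of smooth muscle at 1554 ± 22.1 CPM and Mir154 of the Dlk1-Dio3 region at 959 ± 93.6 CPM. In counted reads Mir29a, at 725 ± 34.3 CPM, was below these 3 and above the other 4 of the 7. It was also above the list's median level of 567 CPM. Among those 4, Mir199a-1 and Mir199a-2 share a mature arm with another gene, so their places below Mir29a are not certain.

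Other miRNAs known to restrain fibrosis or the epithelial-mesenchymal transition lay on both sides of Mir29a, with 7 of 13 above it and 6 below. The 13 totalled 60804 ± 1366 CPM (SD, n = 2), 73.0-fold above the miR-29 sum, and 11 had at least 10 reads in each library. The highest were Mir30a at 16474 ± 1951 CPM, Mirlet7d at 13414 ± 892 CPM, and Mir429 of the epithelial miR-200 family at 11543 ± 541 CPM. Mir133a-1 and Mir133a-2 had 0 reads, but both encode miR-133a, so the limit given for the miR-29b rows holds for them too. The list of other miRNAs that target DNA methyltransferases or TET enzymes had 8 members, all with at least 10 reads in each library, and totalled 12954 ± 91.6 CPM. It was led by Mir22, which targets TET enzymes, at 10359 ± 26.8 CPM, before Mir101b at 1317 ± 157 CPM and Mir148a, which targets Dnmt1, at 520 ± 44.2 CPM. The level of Mir29a lay between those of Mir101b and Mir148a, above 6 of the 8. Among members matched to a RefSeq mature sequence, which leaves out Mir145a, Mir133a-1 and Mir133a-2, 2 in each of these 3 lists share a mature arm with another gene. The same holds for 2 of 4 in the miR-29 family, and reads of those arms may be missing from all 4 sums. Mir26a-1 and Mir26a-2 share such an arm and were counted below Mir29a, as were Mir133a-1 and Mir133a-2. Their places below Mir29a are therefore not certain. Mir101a, Mir26a-1 and Mir26a-2 are in both of the lists described last.

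The libraries had markers of several cell types present in lung. Mir126a of endothelium stood at 160649 ± 12.4 CPM (SD, n = 2), the smooth muscle and fibroblast pair totalled 69391 ± 3136 CPM, the 5 epithelial miR-200 genes 30556 ± 329 CPM and the 4 multiciliated cell genes 22141 ± 110 CPM. Of the blood cell markers, the 2 leukocyte genes with a row totalled 1501 ± 80.0 CPM and the 2 erythroid genes 1211 ± 113 CPM. Markers of liver, heart, skeletal muscle and brain, 9 genes with a matched row, totalled 476 ± 31.7 CPM. Most of this total was from the heart markers Mir208b, at 299 ± 6.33 CPM, and Mir208a, at 114 ± 14.4 CPM. Mir122 of liver stood at 49.5 ± 5.08 CPM. The brain markers Mir124a-1, Mir124a-2, Mir124a-3 and Mir9-2 had 0 reads. Mir9-2 shares a mature arm with another gene, so the limit given for the miR-29b rows holds for it too. The Mir124a genes were matched to no mature sequence, and whether this limit holds for them was not tested. These counts therefore do not show that brain miRNAs were absent, and reads may be missing from this total. Mir142 and Mir9-1 were not analysed here. In counted reads, the miR-29 sum was thus above that of the other organs and below each of the others. Which cells of the lung held miR-29 cannot be read from these libraries.

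The pups were then compared gene by gene. Each row's reads were set against the library totals in an exact binomial test, two-sided and with p adjusted after Benjamini and Hochberg over the 375 rows with at least 10 reads in all. This test compares these 2 libraries and no conditions. It called 42.4% of the rows tested, with 87 (23.2%) higher and 72 (19.2%) lower in replicate 1, a share of 54.7% higher that became 37.7% with TMM scaling, 41.5% with DESeq2 size factors and 66.3% when scaled to all reads. Of the miR-29 genes 3 were tested and 2 passed, 1 higher and 1 lower in replicate 1, and a count over so few members cannot be set apart from that background. Of the miRNAs known to favour fibrosis 2 of 7 were higher and 0 lower, of those known to restrain it 4 of 11 were higher and 2 lower, and of those that target methyltransferases or TET enzymes 1 of 8 was higher and 1 lower. The miR-29 genes' median log2 ratio of replicate 1 to replicate 2 was 0.14, against 0.03 over the 374 tested rows with reads in both libraries.

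Mir29b-1 was the member that differed most. It was higher in replicate 1, 10.6 against 5.34 CPM, a log2 ratio of 0.99 (exact 95% interval 0.29 to 1.70), with an adjusted p of 0.0115 in the exact binomial test. A ratio of at least this size was found in 32 of the 141 tested rows with fewer than 200 reads in all, or 22.7%, and in 0 of the 233 rows with at least 200. Most of these rows had fewer reads than the 77 of Mir29b-1. Among the 28 rows with 77 or more and fewer than 200 reads, 2 had a ratio of at least this size, Mir29b-1 and Mir1247, which is named here after its value was seen. The test called 4 of these 28 rows, or 14.3%. Mir29b-2, with 4 and 3 reads, was too low to be tested, and its log2 ratio of 0.67 has an interval of -1.89 to 3.45.

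Mir29a was slightly lower in replicate 1, 701 against 749 CPM, a log2 ratio of -0.10 (-0.16 to -0.03) with an adjusted p of 0.0135 in the exact binomial test. The median size of the log2 ratio over rows with at least 200 reads was 0.17, so Mir29a differed less than such rows commonly did under this scaling. Its log2 ratio was -0.17 with TMM scaling and -0.15 with DESeq2 size factors. The median was not worked out under those scalings. Scaled to all reads of the library, the log2 ratio of Mir29a was -0.03 and the exact adjusted p was 0.589. Mir29c had a log2 ratio of 0.14 (-0.04 to 0.33) and an exact adjusted p of 0.219, which did not pass. Scaled to all reads, its log2 ratio was 0.21 with an exact adjusted p of 0.0479. It was 0.08 with TMM scaling and 0.09 with DESeq2 size factors, and neither passed. The direction in which the members differed was thus not the same, with Mir29a lower in replicate 1 and Mir29b-1 higher.

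**Figure D4:**
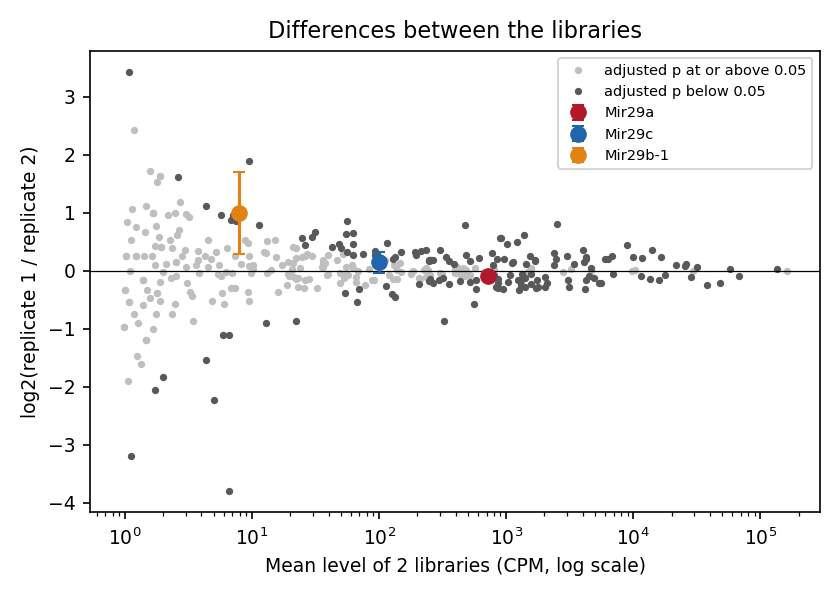
Log2 ratio of replicate 1 to replicate 2 against mean level in CPM on a log scale for the rows tested that had reads in both libraries, with rows past an adjusted p of 0.05 in dark grey. Mir29b-1 stands at 0.99, Mir29c at 0.14 and Mir29a at -0.10, with exact 95% intervals as bars.

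The messenger RNAs that miR-29 acts on were not sequenced here, and their annotated 3′ UTRs were searched only to show what the seed pairs with. The match to bases 2 to 8 is TGGTGCT, searched on the transcript's strand in the longest annotated 3′ UTR of each protein-coding gene of GENCODE M21. Of 18 matrix, methyltransferase and TET genes listed because they are known or likely targets, 16 held it, at 11.0 matches per 10000 bases. Of all 20945 genes 13.1% held it, at 1.06 matches per 10000 bases, and of those with a 3′ UTR of at least 1000 bases 22.2% did. Since the list was made of known targets, this share is no independent evidence. The highest counts were 8 matches in Tet3, 7 in Tet1, and 5 each in Tet2 and Dnmt3a, whose 3′ UTRs are also long, while Eln, the elastin gene, had 3 matches in 1188 bases. Col1a2 and Sparc had none in this window. A match is a run of letters and not a tested site.

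Matches in the genes of type I and type III collagen, elastin and the methyltransferase Dnmt3a are shown as the sequence that miR-29a-3p would face. Its gene had the most counted reads of the family. Capitals mark the seed match. The match shown was chosen as the first in each 3′ UTR that is followed by an A.
Col1a1: tgggaaggaatttcTGGTGCTat
Col3a1: tcaaaatgtctcaaTGGTGCTat
Eln: gacctcatcaacgtTGGTGCTac
Dnmt3a: ccaggggaggtagcTGGTGCTag
The match shown begins at base 919 after the stop codon in Col1a1, 235 in Col3a1, 38 in Eln and 3658 in Dnmt3a. Col1a1 and Col3a1 have 1 match each, while an A follows 2 of 3 matches in Eln and 2 of 5 in Dnmt3a. The seed match is the same for miR-29a, miR-29b and miR-29c, so it does not tell the family's members apart.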

How the data were processed

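For each library the authors deposited whole-number read counts per miRNA gene with no normalization, and the text deposited beside them names mm10 and GENCODE M4. Aligner, counter and trimming were not given in the sources used here. Every file has counts on either strand, and 2 columns read here as the gene's own strand and the opposite strand, because they sum to the first in all 1973 rows. Own-strand reads were used, 98.2% and 98.0% of reads on miRNA genes in replicates 1 and 2. Rows naming no gene, 4 per table, were kept out of the totals: reads mapped to several places were 34.6% and 36.7% of all reads, unmapped ones 8.49% and 8.69%, and those on no feature 2.18% and 2.41%.

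Symbols came from GENCODE M21, which matched 1894 identifiers without their version. Levels are CPM of the own-strand total. Detected means at least 10 reads in each library. Intervals are exact Clopper-Pearson 95% intervals, for ratios from the split of reads. The libraries were counted separately, since their counts differed by more than sampling noise, with a chi-square per degree of freedom of 75.2 on 374 degrees. Scaling alternatives used edgeR 4.0.16 (TMM) and DESeq2 1.42.0, for size factors only, and tests used scipy 1.17.1 in Python 3.11.15. The exact binomial test was tested on simulated data with sampling noise alone. These libraries differed by more than such noise, so the simulation does not show how the test behaves on them.

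Named were the members, the 3 nearest rows of each member, and the 3 highest members of each list. Some other list members were named to state limits of the counts or overlap of the lists. The members and lists were chosen with earlier results of these data known. That the libraries are separate pups rests on the labels. The p-values set each row's split of reads against counting noise alone and do not measure a spread between animals.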

Additional observations from a re-analysis of the deposited data

How the results depend on the processing

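The miR-29 sum was 445 ± 2.55 counts per 1000000 of all reads of the library, against 833 ± 23.3 CPM, since the larger total includes reads mapped to several places. With reads on either strand, TMM scaling or DESeq2 size factors it lay between 817 and 834 CPM, and it was 816 to 849 CPM with 1 library left out. Leaving out 1 of 2 libraries only returns the value of the other, so it is no further check. With 1 library left out, the log2 ratios were 6.05 to 7.13 for Mir29a to Mir29b-1, 6.88 to 7.41 for Mir29c to Mir29b-2 and 2.75 to 2.99 for Mir29a to Mir29c. The 7.41 is a bound, since Mir29b-2 stood at its floor in replicate 2. The count of rows that differed between libraries was 147 to 165 with reads on either strand, TMM scaling, DESeq2 size factors, no filter, and scaling to all reads (163, an alternative chosen after seeing the data), against 159. The exact adjusted p of Mir29a ranged from 4.79e-06 with TMM scaling to 0.589 when scaled to all reads. That of Mir29b-1 ranged from 0.00524 to 0.0213 and stayed below 0.05 in each alternative. No paired analysis was possible because the samples form 1 group. Mir29b-2 lay at about its floor, and why it did was not tested. With gene rows read as uniquely placed reads, the amount of miR-29b-3p was not measured.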
